A study of Mus musculus with 14 samples.

Results

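The 39 genes described here mark the stages of the B cell lineage, from the precursor to the antibody-secreting plasma cell. They were taken from a fixed list of gene symbols, and all 39 were found among the 49315 genes of the spleen count table, each with a single identifier. Their roles were set as 6 early B cell genes, 4 B lineage transcription genes and 8 genes of the B cell receptor and its signalling. The others were 9 genes of mature B cells (mostly surface genes), 5 marginal zone genes, 1 germinal centre gene and 6 plasma cell genes. In the ovary table of 18603 genes, 25 of the 39 were listed.

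The mice lack ZFP36L2, an RNA-binding protein that shortens the life of mRNAs with adenine-uridine rich elements. In L2-fKO animals (L2-cKO in the sample labels) both *Zfp36l2* alleles had lost the floxed exon 2 through CMV-Cre, a Cre that is active in nearly every cell, so the loss was not limited to B cells. The WT controls were littermates with 2 intact alleles that also carried the CMV-Cre transgene. Spleens were compared between 4 WT (2 female, 2 male) and 4 L2-fKO animals (1 female, 3 male), and ovaries between 3 WT and 3 L2-fKO animals, as pups in the first days of life, with 1 library per animal. The animals were matched for age within the study, but the age of each animal is not given in the sources used here. The labels name the spleen source as spleen organoid, which was taken to be the spleen of the study, and L2-fKO spleen 3 and L2-fKO ovary 1 came from the same animal.

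B cells arise from precursors that rearrange their immunoglobulin genes with the RAG recombinase and test the first heavy chain with a surrogate light chain. Mature B cells carry a receptor of IgM and IgD with the signalling chains CD79A and CD79B, and settle in the spleen as follicular or marginal zone cells. A B cell that becomes a plasma cell turns on the factors BLIMP-1 and XBP1, enlarges its secretory pathway and joins IgM into polymers with the J chain. In the newborn mouse the spleen is also a site of blood formation, and its B cell compartment is still filling.

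In the gel-shift assays of the study, ZFP36L2 appeared to need at least the 7-base element UAUUUAU to bind. The 3′ untranslated region (3′UTR) of each gene was therefore searched for it, using the longest 3′UTR of the GENCODE M21 annotation on GRCm38. The element stood in 6 of the 39 genes (15.4%), against 4195 of 14227 genes tested in the spleen (29.5%). *Rag1*, *Cd37*, *Cr2* and *Jchain* had 1 copy, *Ebf1* had 3 and *Prdm1* had 4. The copies in both plasma cell genes are printed because the genes that passed the test in the spleen belong to that group. Each is shown as RNA, 5′ to 3′, with the 7-base element in capitals inside its neighbouring bases.
Jchain, minus strand, chr5:88520832-88520838: auuuacuaaUAUUUAUgaaagacuu
Prdm1 copy 1, minus strand, chr10:44438205-44438211: aaugcuguaUAUUUAUgaaccuauu
Prdm1 copy 2, minus strand, chr10:44438193-44438199: uuaugaaccUAUUUAUaccaguaua
Prdm1 copy 3, minus strand, chr10:44438159-44438165: uauaugauaUAUUUAUaaccacuua
Prdm1 copy 4, minus strand, chr10:44437221-44437227: uuacauuguUAUUUAUgugcaaauu
The *Jchain* copy began at base 475 of a 3′UTR of 801 bases, and the *Prdm1* copies at bases 1456, 1468, 1502 and 2440 of a 3′UTR of 2490 bases. Copies 1 and 2 of *Prdm1* stand so close that their printed windows share bases. No copy was found in the 3′UTRs of *Tnfrsf17*, *Xbp1*, *Sdc1* and *Mzb1*, the other plasma cell genes. A match gives the letters of the site and is not evidence that the protein binds there in the spleen.

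Spleen libraries held 39138010 to 45167464 counts in genes, and the ovary libraries 31052510 to 44270070 recovered reads. In the spleen *Zfp36l2* itself had 4362 to 7394 normalized counts in WT and 278 to 405 in L2-fKO libraries, and in the ovary 4745 to 4906 against 758 to 1011. All 10 neutrophil and all 10 megakaryocyte and platelet markers were lower in L2-fKO spleens, with summed levels of 175683 to 281507 against 11461 to 64975 and of 31327 to 58351 against 1554 to 2082. Pancreatic acinar markers summed to 29360, 8570, 1747 and 24523 in WT libraries 1 to 4 and to 1324 to 2234 in the L2-fKO libraries, so WT 1, 2 and 4 held RNA of pancreas tissue that WT 3 did not hold at that level. T cell markers summed to 4877 to 13146 in WT and 6160 to 13154 in L2-fKO libraries, with none of 12 called.

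The first question was which stages of the lineage differed between the genotypes in the spleen. A gene was called when its adjusted p was below 0.05 and its log2 fold change (L2-fKO over WT, by edgeR's quasi-likelihood F-test, with p adjusted by Benjamini-Hochberg over all 16911 genes tested) was above 1 or below -1. All 39 genes passed the filter on low counts, *Tnfrsf17* only through the 4 L2-fKO libraries, where it was high. The genes that passed were 4 of the 6 plasma cell genes: *Tnfrsf17* and *Jchain* were called higher in L2-fKO spleens, and *Xbp1* and *Sdc1* were higher by their adjusted p but by less than the fold limit. None of the other 33 genes, from the RAG genes to the marginal zone genes, was called or had an adjusted p below 0.05. Called higher were thus 2 of 39, against 490 of all genes tested (2.9%), and called lower 0 of 39, against 526 (3.11%). With the adjusted p alone, 4 of 39 were higher against 6.89% of all genes, and 0 of 39 were lower against 6.51%. The counts over all 39 genes were therefore near the background, and the 4 genes all belonged to the plasma cell group of 6. At an unadjusted p below 0.05 the fit held 7 of the 39 genes (17.9%), 6 higher and 1 lower, against 4910 of all genes (29.0%). DESeq2 gave the same 2 calls higher and 0 lower, against 548 higher and 596 lower over all genes.

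**Figure D1:**
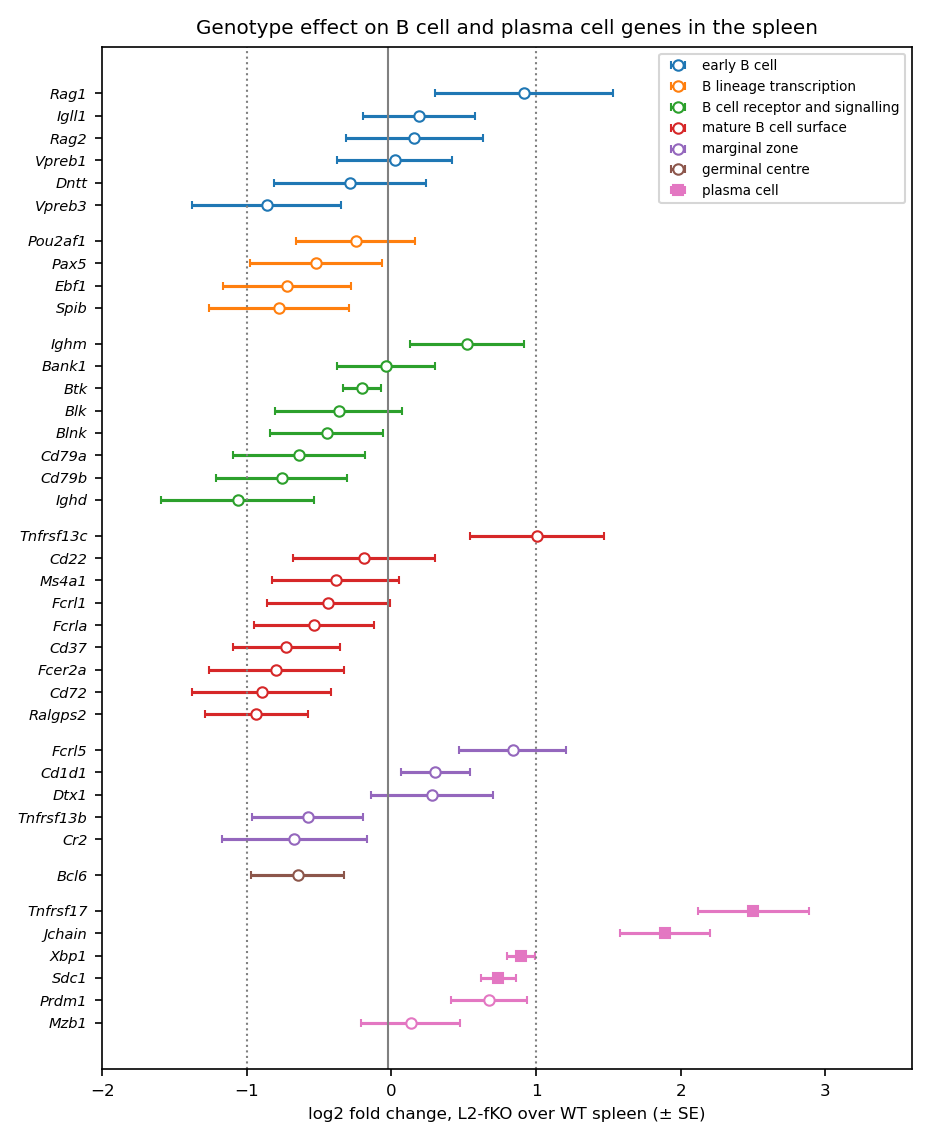
Log2 fold change of L2-fKO over WT spleen with its SE (x axis) for the 39 genes (y axis), coloured by role. Filled squares have an adjusted p below 0.05, open circles do not, the grey line is the median of all genes tested (-0.02) and the dotted lines are the fold limits. The 4 filled squares are *Tnfrsf17*, *Jchain*, *Xbp1* and *Sdc1*.

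*Jchain* encodes the J chain, which joins IgM and IgA into polymers and is made by plasma cells and their precursors (chromosome 5, 88519809 to 88527891, minus strand, GRCm38). Its normalized counts were 1317, 946, 454 and 906 in the WT libraries and 3310, 2278, 3209 and 4676 in the L2-fKO libraries. The highest WT library lay below the lowest L2-fKO library. The log2 fold change was 1.89 (SE 0.31, adjusted p = 0.00423 by edgeR), a 3.72-fold rise from a mean of 906 ± 354 to 3368 ± 988 (SD, n = 4 each).

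*Tnfrsf17* encodes BCMA, a receptor for the survival factors BAFF and APRIL that is found on plasma cells (chromosome 16, 11313812 to 11320074, plus strand). It was the scarcest of the 39 genes, with 4, 5, 3 and 2 reads in the WT libraries and 18, 11, 21 and 31 in the L2-fKO libraries. All 4 L2-fKO libraries lay above all 4 WT libraries, which followed from passing the filter on low counts only through the L2-fKO libraries. The log2 fold change was 2.50 (SE 0.38, adjusted p = 0.00304 by edgeR), from 3.46 ± 1.28 to 20.1 ± 6.11 normalized counts (SD, n = 4). With 14 reads in all WT libraries and 81 in all L2-fKO libraries, the ratio scaled to library totals was 5.92, with a 95% exact interval of 3.33 to 11.3 that covers counting error only. The size of its change is therefore known with less precision than that of *Jchain*.

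*Xbp1* encodes the transcription factor that expands the secretory pathway, in plasma cells and in other secretory cells. Its normalized counts were 3719, 4067, 3407 and 3409 in the WT and 6986, 6522, 6593 and 7061 in the L2-fKO libraries. Both groups were tight and well apart, and the log2 fold change was 0.90 (SE 0.10, adjusted p = 0.0005 by edgeR). *Sdc1* encodes syndecan-1 (CD138), a proteoglycan used to mark plasma cells and also present on epithelial cells. It had 451, 420, 442 and 409 normalized counts in the WT and 738, 642, 829 and 665 in the L2-fKO libraries, again without overlap. Its log2 fold change was 0.74 (SE 0.12, adjusted p = 0.00431 by edgeR).

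The remaining plasma cell genes did not pass the test. *Prdm1* encodes BLIMP-1, the repressor that ends the B cell programme. It had 144, 126, 84.5 and 112 normalized counts in the WT and 188, 163, 125 and 269 in the L2-fKO libraries. The groups met at 125 to 144, and the log2 fold change was 0.67 (SE 0.26, adjusted p = 0.121 by edgeR). *Mzb1*, which encodes an endoplasmic reticulum protein that helps assemble IgM, had 2655, 2048, 829 and 1906 against 2286, 1804, 1228 and 2832. Its groups overlapped almost wholly, with a log2 fold change of 0.13 (SE 0.34, adjusted p = 0.833 by edgeR).

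**Figure D2:**
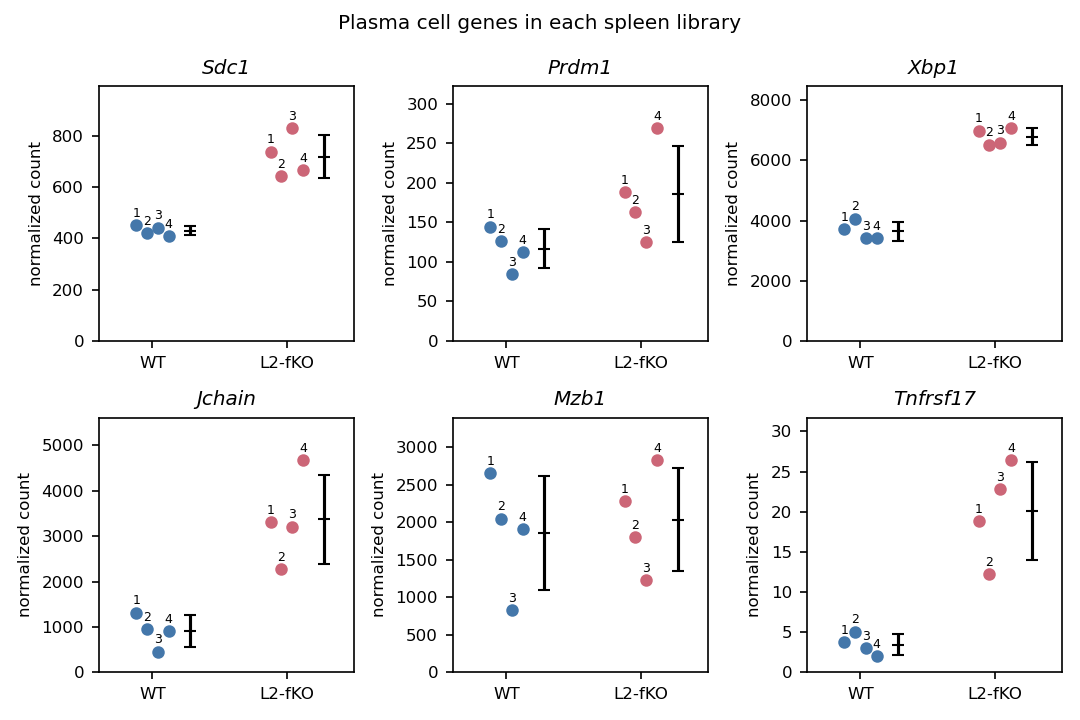
Normalized count (y axis, from 0) of the 6 plasma cell genes in each spleen library, with the library number over each point and the mean ± SD of 4 libraries beside it. For *Sdc1*, *Xbp1*, *Jchain* and *Tnfrsf17* all L2-fKO points lie above all WT points, while for *Prdm1* and *Mzb1* the groups overlap. For *Tnfrsf17* the separation follows from the filter on low counts.

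Counted by separation of the groups, 4 of the 39 genes had every L2-fKO library above every WT library, the same 4 genes, against 9.61% of all genes tested. For *Tnfrsf17* the separation followed from the filter on low counts, which it passed only through the L2-fKO libraries, so it adds nothing to its call. None of the 39 had every L2-fKO library below, against 10.8% of all genes. Of other plasma cell genes, a list of 12 that holds no member, 0 were called higher and 1 was called lower. The lower one was *Ly6c2*, which is also expressed on monocytes, at -1.28 (SE 0.30, adjusted p = 0.0226 by edgeR). *Ell2*, an elongation factor that helps switch the heavy chain to its secreted form, was higher by its adjusted p with a log2 fold change of 0.89 (adjusted p = 0.0265 by edgeR), and the median of the 12 was 0.24 against -0.02 for all genes.

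The plasma cell genes are not private to plasma cells. In WT ovary, where *Cd79a* stood at 0.363 RPKM (reads per kilobase of exon, scaled to library size, from normalized counts and exon length), *Sdc1* stood at 80.7 and *Xbp1* at 40.8 RPKM. In WT spleen the same scale gave 148 for *Cd79a*, 26.0 for *Xbp1*, 8.33 for *Jchain*, 2.62 for *Sdc1* and 0.0985 for *Tnfrsf17*. Of 9 stromal markers 3 were called higher in L2-fKO spleens and 0 lower. Those not called had log2 fold changes from -0.09 (*Dcn*) to 0.34 (*Col1a1*). The summed level of the 9 was 55457 to 66688 in WT and 72501 to 92270 in L2-fKO libraries. Of the 11 macrophage markers tested 0 were called, but 2 were higher by their adjusted p (*Mertk* at 0.79 with 0.0143 and *Adgre1* at 0.87 with 0.0481 by edgeR), all 11 had log2 fold changes above 0 with a median of 0.50, and they summed to 48432 to 97733 and 86510 to 145278. The part of stromal cells and macrophages in the levels of *Xbp1* and *Sdc1* was not tested. In bulk tissue, more cells of a type and more RNA per cell cannot be told apart. The part of the acinar RNA of WT 1, 2 and 4 was not tested either.

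Of the early B cell genes 4 of 6 were above and 2 below a log2 fold change of 0, with a median of 0.09, and none passed the test. *Rag1*, a subunit of the recombinase, had the highest log2 fold change of the group, 0.92 (SE 0.62, adjusted p = 0.359 by edgeR). Its normalized counts were 903, 210, 222 and 432 in the WT and 1831, 783, 288 and 436 in the L2-fKO libraries. L2-fKO library 1 alone carried 1831, while L2-fKO 3 and 4 lay among the WT libraries. *Vpreb3*, which encodes a protein bound to the heavy chain in precursor B cells, had the lowest, -0.86 (SE 0.52, adjusted p = 0.303 by edgeR). It had 2027, 673, 217 and 672 against 529, 435, 451 and 558 normalized counts, with WT libraries both above and below all L2-fKO libraries. The surrogate light chain genes *Vpreb1* and *Igll1* were at 0.02 and 0.19, *Rag2* at 0.16 and *Dntt*, the polymerase that adds untemplated bases at the joins, at -0.29. Without WT 1 these were at 0.65 for *Vpreb1*, 0.84 for *Igll1*, 1.54 for *Rag1*, 0.83 for *Rag2*, 0.51 for *Dntt* and -0.08 for *Vpreb3*. Of these 6 genes, only *Igll1* then passed the adjusted p (0.0172 by edgeR), below the fold limit. In the male libraries, which also leave out WT 1, *Igll1* was at 0.82 (adjusted p = 0.0233 by edgeR).

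All 4 B lineage transcription genes had log2 fold changes below 0, from -0.25 to -0.78, and none passed the test. *Spib*, an ETS factor of B cells and plasmacytoid dendritic cells, was lowest at -0.78 (SE 0.48, adjusted p = 0.321 by edgeR), with 13405, 5645, 2073 and 4749 normalized counts in the WT and 3932, 3467, 2223 and 5490 in the L2-fKO libraries. *Pou2af1*, a coactivator of octamer factors, was nearest 0 at -0.25 (adjusted p = 0.732 by edgeR), with 6203, 3058, 1285 and 2370 against 2880, 2602, 1705 and 3690. In both, WT 1 was the highest and WT 3 the lowest of the 8 libraries. *Pax5* and *Ebf1*, the factors that commit cells to the lineage, were at -0.52 and -0.72.

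Of the 8 receptor and signalling genes, 7 had log2 fold changes below 0 and *Ighm* was above 0, with a median of -0.41. *Ighm*, the constant region of IgM, had 62225, 34899, 15826 and 28791 normalized counts in the WT and 48459, 40788, 33964 and 80232 in the L2-fKO libraries. *Ighd*, the constant region of IgD, had 6580, 2807, 898 and 2283 against 1263, 1299, 889 and 2559. Neither passed the test, at 0.52 (SE 0.40, adjusted p = 0.415 by edgeR) and -1.06 (SE 0.53, adjusted p = 0.215 by edgeR). *Cd79a* and *Cd79b*, the signalling chains, were at -0.64 and -0.76, the kinase genes *Blk* and *Btk* at -0.37 and -0.20, and the adaptor genes *Blnk* and *Bank1* at -0.45 and -0.04. *Ighm* was the most abundant of the 39 genes per length, at 437 RPKM in WT spleen.

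Of the 9 genes of mature B cells, 8 had log2 fold changes below 0, and the median was -0.54. The exception was *Tnfrsf13c*, which encodes the BAFF receptor, the main survival receptor of mature B cells. It had 4462, 1722, 639 and 1607 normalized counts in the WT and 4466, 3806, 5323 and 3361 in the L2-fKO libraries, so WT 1 lay among the L2-fKO libraries and the other 3 WT libraries lay below them. Its log2 fold change was 1.01 (SE 0.46, adjusted p = 0.184 by edgeR). Without WT 1 it was called, at 1.68 (adjusted p = 0.0127 by edgeR). In the male libraries alone, which also leave out WT 1, it was called at 1.22 (adjusted p = 0.00538 by edgeR). *Ralgps2*, an exchange factor for Ral GTPases, was lowest at -0.93 (SE 0.36, adjusted p = 0.116 by edgeR), with 4035, 2377, 1363 and 2056 against 1229, 1179, 727 and 2011. It was called without L2-fKO 4, at -1.23 (adjusted p = 0.0383 by edgeR), and its adjusted p was 0.0439 at -0.94 by DESeq2 and 0.0346 at -0.92 by edgeR with no filter on low counts. *Ms4a1* (CD20), *Cd22*, *Cd72*, *Cd37*, *Fcrla*, *Fcrl1* and *Fcer2a* (CD23) lay between -0.90 and -0.19.

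In the marginal zone group 3 of 5 genes had log2 fold changes above 0 and 2 below, with a median of 0.28. *Fcrl5*, an Fc receptor-like protein of marginal zone and B-1 cells, was highest at 0.84 (SE 0.37, adjusted p = 0.164 by edgeR), with 325, 153, 85.5 and 165 normalized counts in the WT and 383, 332, 205 and 383 in the L2-fKO libraries. Here too WT 1 lay among the L2-fKO libraries. Without WT 1 *Fcrl5* was called at 1.28 (adjusted p = 0.0266 by edgeR). In the male libraries alone, again without WT 1, it was called at 1.21 (adjusted p = 0.00747 by edgeR). *Cr2*, the complement receptor CD21, was lowest at -0.67 (SE 0.50, adjusted p = 0.408 by edgeR), with 1607, 687, 319 and 485 against 510, 449, 214 and 771. *Cd1d1*, which presents lipids, was at 0.30, *Dtx1*, a target of Notch signalling, at 0.28, and *Tnfrsf13b*, the receptor TACI, at -0.58. *Bcl6*, the repressor that runs the germinal centre, had 746, 388, 237 and 380 in the WT and 305, 240, 216 and 355 in the L2-fKO libraries, at -0.65 (SE 0.32, adjusted p = 0.213 by edgeR).

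Outside the plasma cell group the largest spread lay between the WT libraries themselves. For 33 of these 33 genes WT 1 was the highest WT library, against 28.5% of all genes tested, and for 31 of 33 WT 3 was the lowest, against 31.3%. The plasma cell genes were not free of this order. WT 1 was also the highest and WT 3 the lowest WT library for *Jchain*, *Prdm1* and *Mzb1*. This did not hold for *Sdc1*, *Xbp1* and *Tnfrsf17*. The median ratio of the highest to the lowest WT library was 4.73 over the 33 genes and 1.46 over all genes tested, and among L2-fKO libraries it was 2.36 and 1.53. Compared with WT 1 alone, all 4 L2-fKO libraries were lower for 27 of 33 genes (29.9% of all genes) and higher for 0 (25.5%). Compared with WT 3 alone, all 4 were higher for 23 of 33 (23.8%) and lower for 0 (28.9%). Compared with WT 2 they were all higher for 7 and all lower for 9, and with WT 4 for 6 and 4, where all genes gave 28.2% to 28.6%. Leaving out WT 1 turned the sign of 8 of the 33 genes from below to above 0, among them *Pax5* to 0.15, *Ms4a1* to 0.16 and *Cd22* to 0.46. WT 1 and L2-fKO 4, with the highest T cell sums of their groups (13146 and 13154), also had the lowest cell cycle sums (219092 and 189093). WT 3 and L2-fKO 3 had the lowest T cell sums (4877 and 6160). WT 1 and WT 3 were both labelled female. What set the level in each WT animal was not tested.

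**Figure D3:**
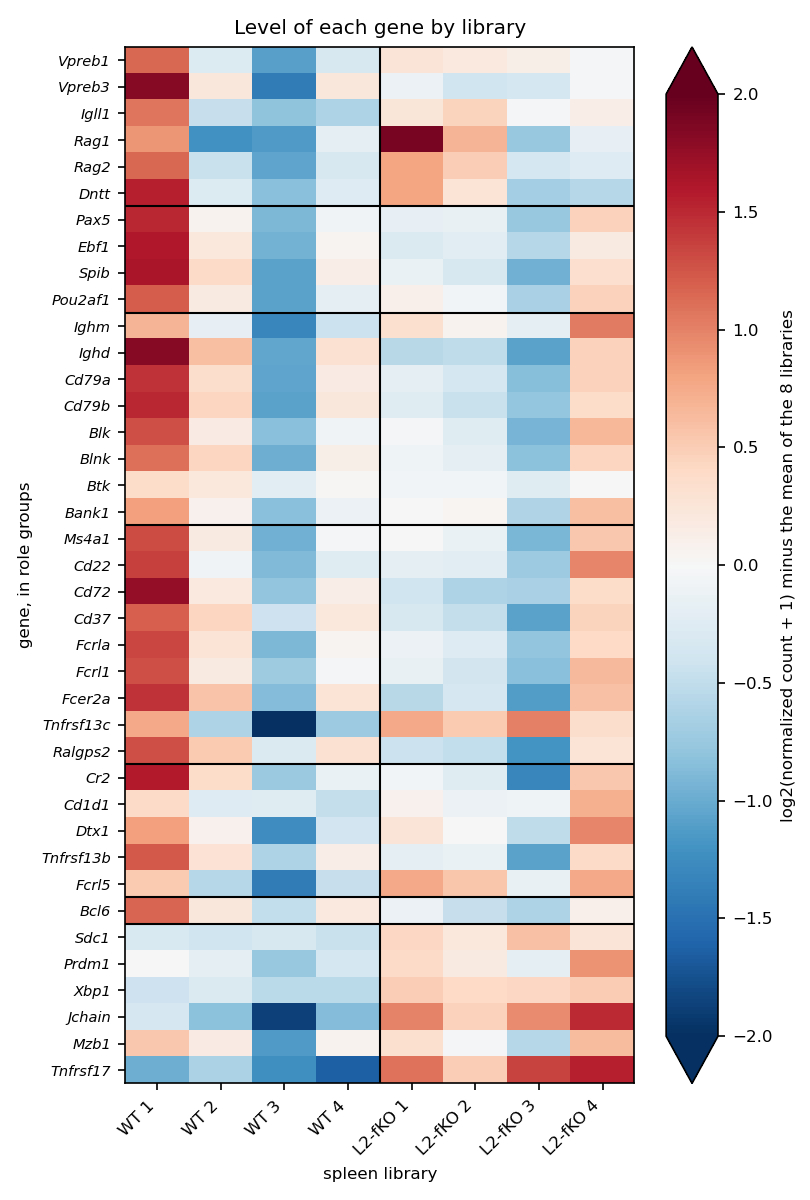
Log2(normalized count + 1) of each gene (rows, in role groups) minus its mean over the 8 spleen libraries (columns), with colours that end at -2 and 2. Above the last block WT 1 is red and WT 3 blue in nearly all rows, and in the plasma cell block the L2-fKO libraries are red for *Sdc1*, *Xbp1*, *Jchain* and *Tnfrsf17*.

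Because most of these genes rose and fell together from library to library, pairs of genes were compared within each library as log2 ratios of normalized counts, which removes the shared part. Of 5 ratios, tested by a two-sided exact permutation test for which 0.0286 is the smallest p that 4 against 4 allows, 3 reached it. Their adjusted p of 0.0476 by this test rests on all 3 reaching it together. Of these 3, *Jchain* to *Cd79a* uses a gene already called in the same libraries. The ratio of *Ighd* to *Ighm*, which is high in mature follicular B cells and low in immature B cells and plasma cells, was -3.24, -3.64, -4.14 and -3.66 in the WT and -5.26, -4.97, -5.25 and -4.97 in the L2-fKO libraries. The groups did not overlap, and the mean fell by 1.45 on the log2 scale, from -3.67 ± 0.37 to -5.11 ± 0.17 (SD, n = 4, exact p = 0.0286, adjusted over the 5 ratios 0.0476). It was lower in 4 of 4 L2-fKO libraries than in any WT library, a 2.73-fold difference. The ratio of *Jchain* to *Cd79a*, a plasma cell gene over a gene of all B cells, was -3.78, -3.15, -2.81 and -3.02 against -0.82, -1.18, -0.19 and -0.97. It rose by 2.40, from -3.19 ± 0.42 to -0.79 ± 0.43 (SD, n = 4, exact p = 0.0286, adjusted 0.0476), a 5.28-fold difference without overlap. Since *Jchain* was itself called, this ratio shows the same rise against the B cell genes of the same library.

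The ratio of *Fcer2a*, a surface gene of follicular B cells, to *Ms4a1*, which is on nearly all mature B cells, was -2.81, -2.56, -2.86 and -2.64 in the WT and -3.50, -3.16, -3.14 and -2.90 in the L2-fKO libraries. It fell by 0.46, from -2.71 ± 0.14 to -3.18 ± 0.25 (SD, n = 4, exact p = 0.0286, adjusted 0.0476). The groups did not overlap, but they nearly met, at -2.86 and -2.90. The other 2 ratios overlapped. *Vpreb1* to *Cd79a* was -4.76, -5.09, -4.50 and -4.95 against -4.04, -3.93, -3.49 and -4.97, a mean difference of 0.72 (exact p = 0.114, adjusted 0.143). *Cr2* to *Cd79a* was -3.49, -3.61, -3.32 and -3.92 against -3.51, -3.53, -4.09 and -3.56, a mean difference of -0.09 (exact p = 0.629, adjusted 0.629).

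**Figure D4:**
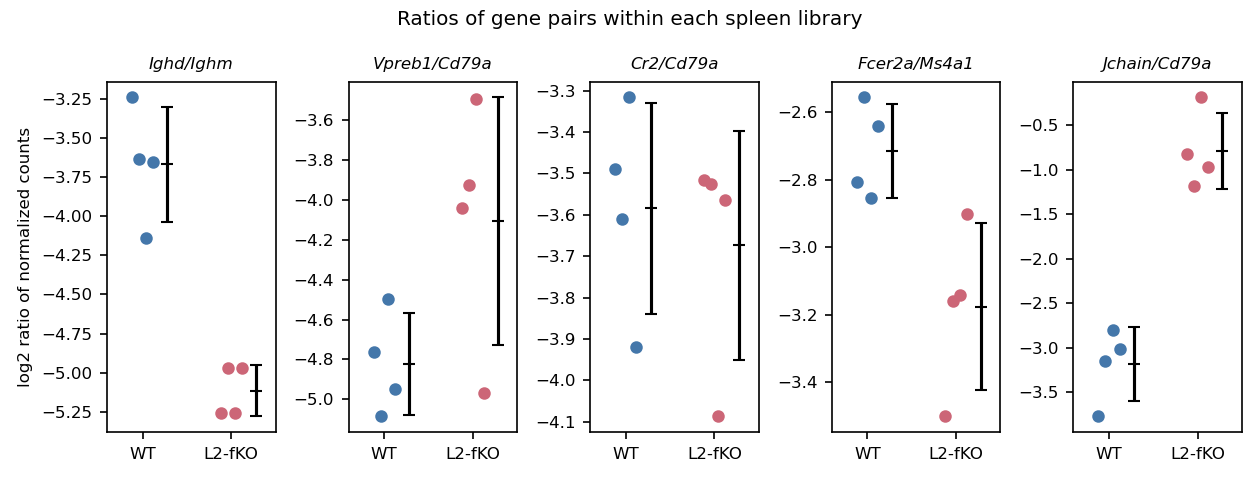
Log2 ratio of the normalized counts of 2 genes (y axis) in each WT and L2-fKO spleen library, with the mean ± SD of 4 libraries. The groups do not overlap for *Ighd*/*Ighm*, *Fcer2a*/*Ms4a1* and *Jchain*/*Cd79a*, and overlap for *Vpreb1*/*Cd79a* and *Cr2*/*Cd79a*.

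Set over *Cd79a* in the same way, without a test, 9 of the other 38 genes had every L2-fKO library above every WT library, against 2.83% of all genes, and 1 had every L2-fKO library below, against 0.81%. These shares are not a like background. The ratio removes spread from genes that vary with *Cd79a* and adds its spread to genes that do not. For levels the shares of all genes were 9.61% and 10.8%, so no excess of members is read from the ratios. *Cd79a* itself had 18058, 8406, 3187 and 7356 normalized counts in the WT and 5846, 5181, 3653 and 9129.6 in the L2-fKO libraries, so the groups overlapped in the gene that all these ratios share. The 9 were *Jchain*, *Tnfrsf17*, *Prdm1* and *Mzb1* of the plasma cell group together with *Pou2af1*, *Ighm*, *Tnfrsf13c*, *Dtx1* and *Fcrl5*, and the 1 was *Ighd*. For *Tnfrsf13c* the log2 ratio to *Cd79a* was -2.02 to -2.32 in the WT libraries and -0.39, -0.44, 0.54 and -1.44 in the L2-fKO libraries, a mean difference of 1.77. For *Ighm* it rose by 1.07, for *Fcrl5* by 1.41, for *Prdm1* by 1.09 and for *Dtx1* by 0.82. *Xbp1* and *Sdc1* over *Cd79a* overlapped between the groups.

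Other genes of the B cell programme were read in 7 lists that hold no member, with a median log2 fold change of -0.13. Of 108 tested, 1 was called higher, against 2.9% of all genes, and 6 were called lower, against 3.11%. The higher one was *Ighg3*, the constant region of IgG3, at 1.31 (SE 0.29, adjusted p = 0.0178 by edgeR). It had 93.4, 104, 109 and 111 normalized counts in the WT and 292, 220, 134 and 392 in the L2-fKO libraries, without overlap. The lower ones in the early B cell list were *Myb*, a factor of blood progenitors, at -1.06 and *Kit*, the stem cell factor receptor, at -1.46. The others were *Grap2*, an adaptor also used by T cells and platelets, at -1.37, *Cd9*, a tetraspanin also carried by platelets, at -1.39, *Gcsam*, a germinal centre signalling protein, at -1.66, and *Ly6c2*. *Ltbr* and *Tnfrsf1a*, receptors through which stroma organises B cell areas, were higher by their adjusted p (0.0112 and 0.0223 by edgeR) at 0.64 and 0.52, below the fold limit. *Myof* of the marginal zone and B-1 list was likewise at 0.91 (adjusted p = 0.0389 by edgeR). The platelet and neutrophil markers that fell in the same spleens are given above, and their part in *Grap2*, *Cd9* and *Ly6c2* was not tested.

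The listed genes were also compared in the ovary, an organ with few B cells. It could not answer for *Jchain* and *Tnfrsf17*, the genes called in the spleen, which were not listed there. Of the 39 genes, 14 were not listed in the ovary table: *Vpreb1*, *Igll1*, *Rag2*, *Dntt*, *Pou2af1*, *Ighd*, *Fcrla*, *Fcrl1*, *Fcer2a*, *Tnfrsf13c*, *Fcrl5*, *Jchain*, *Mzb1* and *Tnfrsf17*. All 25 that were listed were tested by limma on log2(normalized count + 1), and 0 were called in either direction, against 0.73% of 18504 genes called higher and 0.227% called lower. With the adjusted p alone none passed either, against 1.23% and 0.351%. At an unadjusted p below 0.05 limma held 6 of the 25 (24%), all higher, against 16.8% of all genes, of which 9.88% were higher and 6.95% lower. On the recovered reads edgeR and DESeq2 also called 0 of the 25. Over all genes edgeR called 136 higher and 46 lower there, and DESeq2 286 and 121. DESeq2 gave *Ebf1* an adjusted p of 0.0362 at a log2 fold change of 0.58.

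In WT ovary 5 of the 25 listed genes had a higher RPKM than in WT spleen, on values normalized separately for each organ: *Ralgps2*, *Cd1d1*, *Prdm1*, *Xbp1* and *Sdc1*. *Ralgps2* stood at 9.75 RPKM in ovary and 4.73 in spleen, and *Cd1d1* at 7.50 and 4.76. Of the 25, 17 stood below 1 RPKM in WT ovary. *Cd79a* had 24.3, 20.9 and 13.8 normalized counts in the WT and 17.9, 60.6 and 22.8 in the L2-fKO libraries, and *Ighm*, the most abundant receptor gene, 163, 115 and 150 against 193, 228 and 164. *Cd79b* had the highest log2 fold change, 1.15 (SE 0.35, adjusted p = 0.163 by limma), with 12.2, 9.19 and 11.0 against 27.7, 32.9 and 17.1. *Cd22* was at 1.10 (SE 0.35, adjusted p = 0.181 by limma), with 12.2, 20.1 and 27.5 against 41.1, 50.3 and 35.3. Both genes stayed at counts of 50.3 or fewer. *Ebf1* was at 0.56 (SE 0.17, adjusted p = 0.156 by limma) with 360, 304 and 306 against 581, 479 and 389, and *Pax5*, at 4.55 to 20.7 counts, had the lowest log2 fold change, -0.64 (SE 0.49, adjusted p = 0.551 by limma). Among the other 7 B cell lists 1 gene, *Cd55*, a complement regulator found on many cell types, was called in the ovary, at 1.49 (adjusted p = 0.0194 by limma).

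For *Xbp1* and *Sdc1*, which ovary cells express well, the genotype effects were compared between organs on the log2 scale. For *Sdc1* the comparison is limited by its level. It stood at 80.7 RPKM in WT ovary, against 2.62 in WT and 4.34 in L2-fKO spleen. A rise of that absolute size would scarcely show in the ovary, so its absence there cannot be read from these values. *Xbp1* had 4933, 4855 and 4911 normalized counts in WT and 5160.0, 5393 and 5078 in L2-fKO ovaries, at a log2 fold change of 0.09 (SE 0.06, adjusted p = 0.501 by limma). *Sdc1* had 10462, 11661 and 11964 against 10878, 12673 and 10952, which overlapped, at 0.02 (SE 0.09, adjusted p = 0.944 by limma). In a joint edgeR fit of spleen counts and recovered ovary reads, chosen after the data were seen, the genotype effect of *Xbp1* was lower in the ovary by -0.82 (SE 0.13, adjusted p = 0.00142) and that of *Sdc1* by -0.74 (SE 0.15, adjusted p = 0.0093). These were 2 of the 25 genes, against 6.69% of 15306 genes with an adjusted p below 0.05. The effect of *Prdm1* differed by -0.62 (SE 0.36, adjusted p = 0.342 by edgeR), which did not pass, and for *Cd79b* the difference was 2.03 (SE 0.93, adjusted p = 0.213 by edgeR). *Jchain* and *Tnfrsf17* could not be compared, as they are not in the ovary table used here. The joint fit treated L2-fKO spleen 3 and L2-fKO ovary 1 as separate animals.

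**Figure D5:**
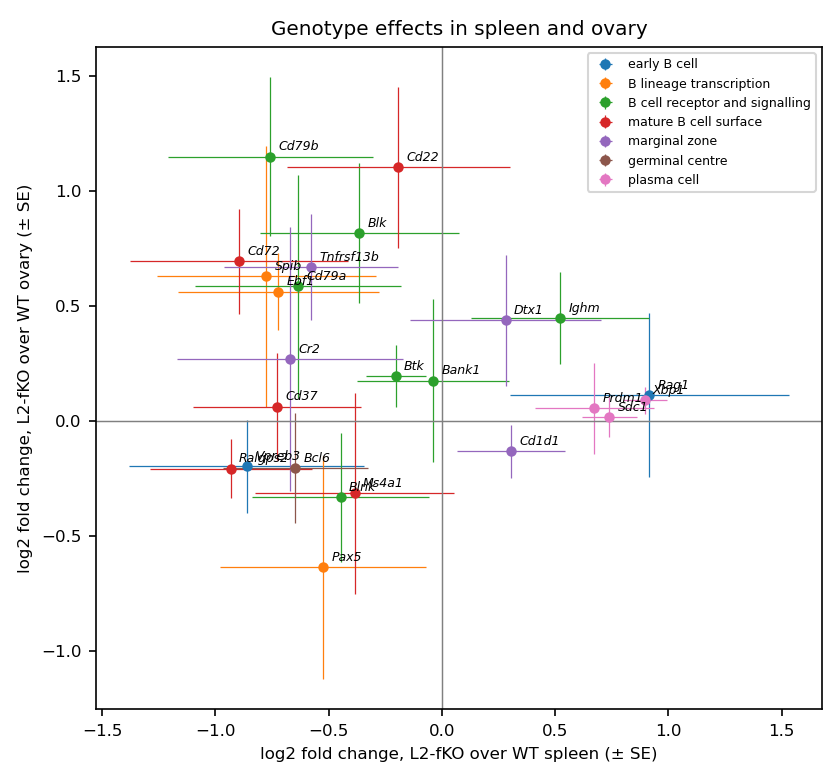
Log2 fold change of L2-fKO over WT in the ovary (y axis) against the spleen (x axis), each with its SE, for the 25 genes in both tables, coloured by role. *Xbp1* and *Sdc1* lie at 0.90 and 0.74 in the spleen and at 0.09 and 0.02 in the ovary.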

How the data were processed

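The members and gene lists were chosen with earlier results of these data known. Per the labels and the study's methods, the authors used Trimmomatic 0.36 for trimming, STAR 2.5.2b for mapping to GRCm38 and featureCounts (Subread 1.5.2) for stranded counting of unique exon reads, and the deposited spleen table holds raw counts. The deposited ovary table holds signal values, counts divided by the authors' size factors, and all values were whole multiples of 1 read (100% within rounding). Log2 fold changes, p-values and adjusted p-values of the authors' DESeq2 comparisons, and their repeats of the normalized values, were not used. Spleen counts (genes that reached 10 counts in 4 or more libraries) were tested by edgeR 4.0.16 with TMM scaling, and printed spleen values are counts over TMM-scaled library size. Ovary values (genes that reached 10 in 3 or more libraries) were tested on log2(value + 1) by limma 3.58.1 with trend, so fold changes of low genes are understated. Genes were named by a rule: per-library values for called members and for the highest and lowest of each role group, and other members by their fold change. Ratios used a pseudocount of 1 and SciPy 1.17.1. On simulated counts with 200 genes changed, edgeR recovered 94.5% for the spleen and limma 96% for the ovary. The simulation gave every gene the same dispersion and every changed gene the same size of change. These shares therefore do not give the power for smaller changes, or for genes as variable between WT spleens as most B cell genes here. Alternatives were DESeq2 1.42.0, other scalings, filters and pseudocounts, sex, the replicate block and leaving out each library. Libraries of a group differed beyond counting noise (chi-square per gene 7.86 or more), so none was counted as a duplicate. Nothing in the sources used here gives the age of each animal, and p-values measure the spread between animals of these groups. *Vpreb1* has a close copy, and reads of *Rag1*, *Pax5*, *Pou2af1*, *Fcrla* and *Ralgps2* may be shared with genes annotated on the same strand.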

Additional observations from a re-analysis of the deposited data

Results flagged for a closer look

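Among 88 groups of 4 spleen libraries examined for the members and ratios, 3 held a library set apart from the other 3 by Dixon's test (3.41%, where chance gives about 5%). *Igll1* in WT 1 stood at 762.9 normalized counts, against 206, 235 and 264 in the other WT libraries. *Dntt* in WT 1 stood at 1146, against 219, 323 and 324. The log2 ratio of *Cr2* to *Cd79a* in L2-fKO 3 stood at -4.09, against -3.56, -3.53 and -3.51. The genotype effect differed between the organs for *Xbp1*, by -0.82 in the ovary relative to the spleen, and for *Sdc1*, by -0.74, in the joint edgeR fit. For *Sdc1* this log2 difference is limited by its WT level, 80.7 RPKM in the ovary against 2.62 in the spleen.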

How the results depend on the processing

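The calls of *Jchain* and *Tnfrsf17* and the adjusted p of *Xbp1* and *Sdc1* stayed on their side of the threshold under every spleen alternative in which the gene was tested, with log2 fold changes of 1.67 to 2.13, 2.32 to 2.73, 0.86 to 0.95 and 0.66 to 0.78. *Tnfrsf17* was not tested where 10 counts were asked of all 8 libraries, which left 1 member called higher. Members called higher numbered 4 in the male libraries alone, a set that also lacks WT 1, and 4 with the adjusted p alone. They numbered 2 to 4 when each library was left out, with 4 only without WT 1. Members called lower numbered 0 to 1, with 1 (*Ralgps2*) only without L2-fKO 4. Calls over all genes rose in the same settings. Those higher numbered 713 in the male libraries and 549 without WT 1, against 490 in the main fit. Those lower numbered 666 without L2-fKO 4, against 526. Over all genes, the adjusted p alone gave 1166 higher and 1101 lower in the spleen and 227 and 65 in the ovary, DESeq2 on recovered reads gave 286 and 121 in the ovary, and leaving out each ovary library gave 28 to 127 and 4 to 72, with 28 and 4 without WT 2. Every ovary library but L2-fKO 2 moved the first of these counts by over 1.5 times when left out, and every one but L2-fKO 1 the second. No ovary alternative called a member.

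Same-numbered WT and L2-fKO libraries deviated together with r of -0.14, 0.09, 0.18 and -0.29 in the spleen and 0.38, 0.21 and 0.07 in the ovary, so the numbers were not taken as pairs. The labels number another WT spleen library 3 as well, here called WT 4, so its match with L2-fKO 4 is a numbering only. Only WT 3 in the spleen, and WT 1 and WT 2 in the ovary, correlated best with the L2-fKO library of their own number. With the replicate block the spleen had 411 calls higher and 389 lower, with 2 and 0 members, and the ovary 187 and 81, with 0 members. *Bank1* turned to 0.020 with the replicate block.

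With 3 against 4 libraries the smallest exact p is 0.0571, and 0.2 with the 2 WT and 3 L2-fKO males, so no ratio could pass there. Leaving out each library gave -1.60 to -1.30 for *Ighd*/*Ighm*, -0.55 to -0.35 for *Fcer2a*/*Ms4a1*, 2.20 to 2.53 for *Jchain*/*Cd79a* and -0.20 to 0.049 for *Cr2*/*Cd79a*. Male libraries gave -1.42, -0.59, 2.10 and 0.23.

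Signs turned for members with no call. In male libraries *Dntt* was at 0.53, *Pax5* 0.074, *Pou2af1* 0.17, *Blk* 0.13, *Bank1* 0.25, *Ms4a1* 0.096, *Cd22* 0.46 and *Fcrl1* 0.039, and with sex as a covariate *Mzb1* was at -0.029. Leaving out each library gave ranges of -0.23 to 0.65 for *Vpreb1*, -0.0043 to 0.84 for *Igll1*, -0.087 to 0.83 for *Rag2*, -0.63 to 0.51 for *Dntt*, -0.79 to 0.15 for *Pax5*, -0.51 to 0.28 for *Pou2af1*, -0.70 to 0.16 for *Blk*, -0.27 to 0.31 for *Bank1*, -0.65 to 0.16 for *Ms4a1*, -0.66 to 0.46 for *Cd22*, -0.79 to 0.072 for *Fcrl1*, -0.053 to 0.70 for *Dtx1* and -0.11 to 0.35 for *Mzb1*. In the ovary they were -0.15 to 0.35 for *Rag1*, -0.18 to 0.56 for *Bank1*, -0.66 to 0.046 for *Ms4a1*, -0.013 to 0.19 for *Cd37*, -0.25 to 0.66 for *Cr2*, -0.42 to 0.019 for *Bcl6*, -0.056 to 0.055 for *Sdc1* and -0.054 to 0.22 for *Prdm1*. The cause was not tested.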
